A study of Mus musculus with 2 samples.

Results

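The 36 genes described here copy DNA or carry a cell through mitosis, and they were followed through liver cells of mice given CCl4 with IPA or CCl4 without it. They were taken as listed symbols, each present in both count matrices, out of 55357 genes. By textbook timing 14 belong to S phase (Pcna, Mcm2, Mcm3, Mcm4, Mcm5, Mcm6, Mcm7, Tyms, Rrm1, Rrm2, Gmnn, Uhrf1, Dut and Lig1). A further 21 belong to G2 and mitosis, here called G2/M (Mki67, Top2a, Hmgb2, Ccnb1, Ccnb2, Ccna2, Cdk1, Birc5, Cdca8, Aurka, Aurkb, Plk1, Bub1, Ube2c, Cenpa, Cenpe, Cenpf, Nusap1, Tpx2, Kif11 and Kif23). Stmn1, which destabilises microtubules, was kept apart from both groups. In both libraries T cells supplied more of the cells that held several of these genes than any other lineage. T cells were also numerous, and some smaller lineages, such as granulocyte progenitors, had a larger share of such cells. In CD8 T cells the G2/M genes had higher ratios of CCl4+IPA over CCl4 than the S genes. Other lineages had the same order, among them T cells with NK receptors, CD4 T cells, immature neutrophils and mononuclear phagocytes. Fewer of the genes were measured in immature neutrophils and phagocytes. Regulatory T cells, NK cells or ILC1, plasmacytoid dendritic cells, stromal or mesothelial cells and cells with markers of several lineages did not have that order.

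A dividing cell first loads the MCM helicase on its origins, then copies its DNA with a polymerase held by the PCNA clamp, on nucleotides that ribonucleotide reductase and thymidylate synthase supply. Mitotic cyclins with CDK1 then drive entry into mitosis, Aurora and Polo kinases and kinesin motors build the spindle, and the anaphase-promoting complex, with its ubiquitin-conjugating enzyme UBE2C, starts chromosome separation. S genes are known targets of E2F factors, whereas many G2/M genes are repressed in resting cells through a promoter element called the CHR and depend on nearby CCAAT boxes. In an inflamed liver, activated lymphocytes and blood cell precursors are known to divide, whereas mature neutrophils do not.

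Each group had 1 library of dissociated liver cells, made with the 10x Genomics 3′ kit, which counts transcripts as unique molecular identifiers (UMIs). The CCl4+IPA mice received carbon tetrachloride (CCl4), a liver toxin, together with IPA (indole propionic acid, per the series' title), and the CCl4 mice received the toxin without IPA. Both groups thus carry the toxin, and untreated liver was not analysed here. The strain, age, dose, duration and number of animals are not given in the sources used here. With 1 library per group nothing was tested, differences are between libraries, and every interval is at 95% and covers counting error only.

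After filters and removal of called doublets, 10128 cells were kept in the CCl4+IPA library and 10016 in the CCl4 library, with a median of 2725 and 3153.5 UMIs per cell. Lineages were gated by at least 2 markers of a lineage and at most 1 of any other, apart from T cells with NK receptors and 2 nested lineages (plasma cells and granulocyte progenitors), and no gate marker is among the 36 genes. The liver label is met by immune cells more than by liver cells: hepatocyte or biliary markers gated 15 and 8 cells and endothelial markers 3 and 6. Cells with markers of several lineages made up 8.62% of CCl4+IPA cells and 12.9% of CCl4 cells, and 4.54% and 3.66% met no gate. Per the labels' protocols, livers were digested with enzymes, red cells were lysed and dead cells removed before loading. The libraries shared 23 barcodes. Median mitochondrial UMIs were 1.78% per cell in the CCl4+IPA library and 3.53% in the CCl4 library. A typical gene took more of the UMIs in the CCl4+IPA library, with a median log2 ratio over all genes of 0.22 in all kept cells and 0.28 in T cells, and ratios are read against that shift. The median was 0.10 and 0.13 with mitochondrial genes, Rn18s-rs5, Lars2 and Mir6236 left out of the total.

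The promoters are shown because the S and G2/M genes carried different element words, which sets the grouping by timing beside something read from sequence alone. RefSeq windows (GRCm38.p6, 250 bases before to 50 after a start) matched 30 of the 36 genes in 34 windows. Stmn1, Mcm4, Gmnn, Tpx2, Aurkb and Ccna2 had no match. Words were searched on both strands. They were the CHR as TTTGAA, the CCAAT box as CCAAT, the E2F site as TTTCCCGC or TTTGGCGC or TTTCGCGC or TTTGCCGC, and the GC box as GGGCGG. E2F words can overlap each other and a CCAAT box, and each start was counted. The CHR word lay in 13 of 18 G2/M windows (72.2%), in 1 of 16 S windows (6.25%, that of Mcm2), and in 17.9% of all 32851 windows. In each of those 13 G2/M windows a CCAAT box lay as well, a pair that 6.95% of all windows held. An E2F word lay in 6 of 16 S windows (37.5%), in 1 G2/M window (5.56%, that of Cdk1), and in 2.26% of all windows. The GC box did not set the groups apart, at 88.9% of G2/M windows and 81.3% of S windows, against 35.7% of all. Printed here are 2 windows of each group among those with most words (Mcm7 tied with Mcm3 and Uhrf1 at 6 words and was taken for its UMIs), all on the minus strand and printed in the direction of the gene, with words on either strand in capitals. The Mki67 window is chr7:135716330-135716629, the Top2a window chr11:99024140-99024439, the Mcm6 window chr1:128359656-128359955 and the Mcm7 window chr5:138171834-138172133. Mki67 and Top2a hold 2 CHR words each and no E2F word, whereas Mcm6 holds 3 E2F words and Mcm7 holds 2, and neither holds a CHR word. The other Mcm7 window holds no E2F word. A match is a word in a window and says nothing of binding.
Mki67: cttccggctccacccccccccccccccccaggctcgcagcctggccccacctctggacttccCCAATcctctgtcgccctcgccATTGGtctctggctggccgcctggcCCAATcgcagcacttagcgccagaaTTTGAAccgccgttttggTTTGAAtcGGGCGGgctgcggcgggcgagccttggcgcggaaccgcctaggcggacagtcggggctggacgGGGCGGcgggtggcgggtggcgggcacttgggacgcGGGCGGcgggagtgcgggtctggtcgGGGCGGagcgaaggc
Top2a: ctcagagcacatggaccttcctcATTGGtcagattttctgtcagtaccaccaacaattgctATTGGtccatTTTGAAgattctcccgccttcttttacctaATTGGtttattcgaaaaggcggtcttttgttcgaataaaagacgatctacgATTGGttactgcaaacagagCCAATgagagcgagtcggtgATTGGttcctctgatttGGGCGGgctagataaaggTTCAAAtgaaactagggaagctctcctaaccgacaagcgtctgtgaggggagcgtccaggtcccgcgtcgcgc
Mcm6: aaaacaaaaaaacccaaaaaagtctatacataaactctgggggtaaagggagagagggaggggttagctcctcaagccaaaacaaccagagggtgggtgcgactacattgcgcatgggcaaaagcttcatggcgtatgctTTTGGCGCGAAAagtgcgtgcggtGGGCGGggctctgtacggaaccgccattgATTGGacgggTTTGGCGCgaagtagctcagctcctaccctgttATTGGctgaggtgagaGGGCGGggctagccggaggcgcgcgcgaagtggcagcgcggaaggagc
Mcm7: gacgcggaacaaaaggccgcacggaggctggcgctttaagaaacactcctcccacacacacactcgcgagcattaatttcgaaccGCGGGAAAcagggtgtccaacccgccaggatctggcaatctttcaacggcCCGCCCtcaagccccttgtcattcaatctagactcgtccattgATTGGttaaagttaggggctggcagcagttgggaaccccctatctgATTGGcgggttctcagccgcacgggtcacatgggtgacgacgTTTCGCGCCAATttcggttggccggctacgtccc

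To compare cells of unequal depth, each cell was thinned at random to 1000 UMIs, and a cell was counted when it held UMIs of 3 or more of the 36 genes. In the CCl4+IPA library 774 of 9525 cells did so (8.13%, interval 7.58 to 8.69), against 589 of 9419 in the CCl4 library (6.25%, 5.77 to 6.76). The ratio of the shares was 1.30 (1.17 to 1.44). In all 20 repeated thinnings the share was higher in the CCl4+IPA library, with means of 8.41% and 6.22%. Without thinning the shares were 35.7% and 35%, a ratio of 1.02 in cells that were deeper in the CCl4 library. When CCl4+IPA cells were thinned to 857 UMIs, which takes out the shift of a typical gene, the mean shares were 6.89% and 6.22%, a ratio of 1.11. The ratio at equal depth thus included the shift of a typical gene, which not every gene shared. With both libraries given the same mix, the shares were 7.94% and 6.36%, a ratio of 1.25.

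Mature neutrophils, which do not divide, gave the background. At 1000 UMIs 16 of 811 CCl4+IPA neutrophils (1.97%, interval 1.13 to 3.18) and 11 of 637 CCl4 neutrophils (1.73%, 0.865 to 3.07) held 3 or more of the genes. Their median depths were 1634 and 2118.5 UMIs. Hmgb2, a chromatin protein that myeloid cells express without dividing, was in all 16 of the CCl4+IPA neutrophils and in 90.9% of the CCl4 ones, with Kif23, Pcna and Cenpa next. Without Stmn1, Hmgb2, Dut and Pcna, 0 of 811 and 2 of 637 remained, and a count of 0 allows a share of up to 0.37% in the CCl4+IPA neutrophils. Of the 36 genes, 30 had at most 10 UMIs in the mature neutrophils of either library, Mki67 among them with 7 and 3.

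**Figure D1:**
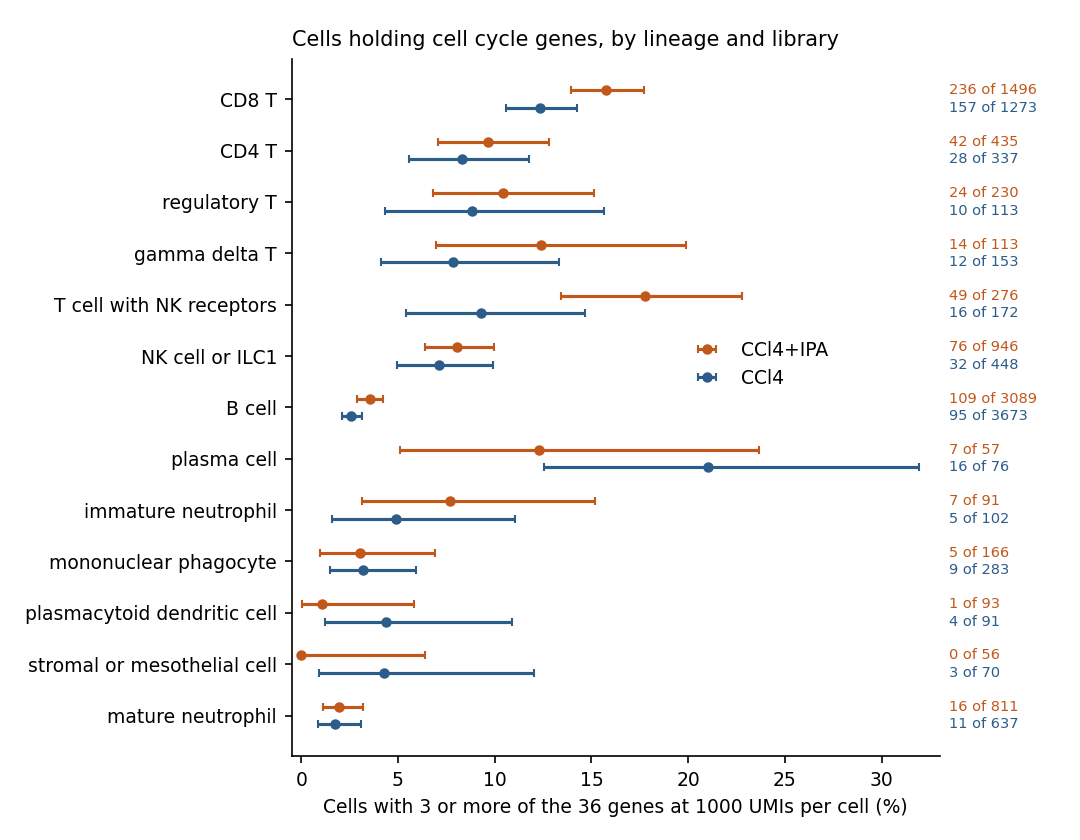
Share of cells (x axis, %) with UMIs of 3 or more of the 36 genes after thinning to 1000 UMIs, by lineage (y axis) for the CCl4+IPA (orange) and CCl4 (blue) libraries, 1 library each. Points are shares, bars are exact 95% intervals for counting error, and counts of cells stand at the right; CD8 T cells lie at 15.8% and 12.3%, T cells with NK receptors at 17.8% and 9.30%, and mature neutrophils at 1.97% and 1.73%.

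T cells held most of the cells with 3 or more genes that a single gate could place. They supplied 358 of the 774 in the CCl4+IPA library (46.3%, from 29.1% of the cells) and 227 of the 589 in the CCl4 library (38.5%, from 23.9%). As a share of T cells this was 12.9% (358 of 2770, interval 11.7 to 14.2) in the CCl4+IPA library and 10.1% (227 of 2250, 8.87 to 11.4) in the CCl4 library. The ratio was 1.28 (1.10 to 1.5), but it turned to 0.965 without thinning (49.5% and 51.3%). With the shift of a typical gene taken out it was 1.05 (means of 10.9% and 10.3%). Without Stmn1, Hmgb2, Dut and Pcna the T-cell shares were 6.61% and 4.84%, a ratio of 1.36 (1.08 to 1.72) that still includes that shift. Pcna was in 13.9% and 14.4% of thinned T cells and in 4.81% and 4.71% of mature neutrophils. Neutrophils thus need not give the background of resting T cells. The T-cell share stood above the neutrophil background in both libraries by either count. With that shift taken out, its ratio between the libraries lay between 0.92 and 1.23 over 20 thinnings.

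Within T cells the share was largest in CD8 cells, the cytotoxic subset. It was 15.8% (236 of 1496) in the CCl4+IPA library and 12.3% (157 of 1273) in the CCl4 library, a ratio of 1.28 (1.06 to 1.54). It was 0.969 without thinning and 1.11 with the shift taken out. CD4 cells had 9.66% (42 of 435) and 8.31% (28 of 337), regulatory T cells 10.4% (24 of 230) and 8.85% (10 of 113), and gamma delta T cells 12.4% (14 of 113) and 7.84% (12 of 153). The ratio intervals of these 3 subsets include 1.

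T cells with NK receptors, gated by at least 2 T-cell markers and at least 2 NK markers, differed most among the lymphocytes. The share was 17.8% (49 of 276, interval 13.4 to 22.8) in the CCl4+IPA library and 9.30% (16 of 172, 5.41 to 14.7) in the CCl4 library, a ratio of 1.91 (1.12 to 3.25). Over 20 thinnings it was higher in the CCl4+IPA library each time, with ratios between 1.45 and 3.35, and with the shift taken out the ratio was 1.79. Unthinned shares were 61.0% and 59.9%, a ratio of 1.02 (0.873 to 1.19), so without thinning no direction is given. The interval also included 1 with the lineage of most markers (1.68, 0.16 to 17.7). Without Stmn1, Hmgb2, Dut and Pcna the ratio was 2.39 (0.993 to 5.75).

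NK cells or ILC1, the innate cytotoxic lymphocytes, had 8.03% (76 of 946) in the CCl4+IPA library and 7.14% (32 of 448) in the CCl4 library. The ratio of 1.12 has an interval of 0.756 to 1.67, and with the shift taken out it was 0.822, so no direction is given. B cells had 3.53% (109 of 3089) and 2.59% (95 of 3673), a ratio of 1.36 (1.04 to 1.79) that turned to 0.979 without thinning, to 0.912 with the shift taken out and to 0.340 at 5 or more genes. Of the B cells, 10.1% and 9.47% of those with 3 or more genes held Mki67 or Top2a, beside 46.1% and 44.1% in T cells and 0% and 9.09% in mature neutrophils. Without Stmn1, Hmgb2, Dut and Pcna the B-cell shares were 0.518% and 0.381%, beside 0% and 0.314% in mature neutrophils.

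The smaller lineages rest on few cells. Plasma cells had 12.3% (7 of 57) in the CCl4+IPA library and 21.1% (16 of 76) in the CCl4 library, a ratio of 0.583 whose interval of 0.257 to 1.32 includes 1. Of those plasma cells 4 of 7 and 15 of 16 held Mki67 or Top2a. Mki67 and Top2a are themselves among the counted genes, so these numbers are no separate check of the count. Granulocyte progenitors, gated by primary granule genes such as Elane and Mpo, held the genes in 9 of 11 and 5 of 11 cells. Immature neutrophils had 7.69% (7 of 91) and 4.90% (5 of 102), mononuclear phagocytes 3.01% (5 of 166) and 3.18% (9 of 283), and plasmacytoid dendritic cells 1 of 93 and 4 of 91. Conventional dendritic cells had 7 of 49 and 13 of 154, and basophils or mast cells 0 of 29 and 4 of 43. Stromal or mesothelial cells had 0 of 56, which allows a share of up to 5.36% by the limit of 3 cells, and 3 of 70. Cells with markers of several lineages, whose share made of doublets was not tested, had 11.7% (101 of 863) and 11.4% (139 of 1224), and they supplied 101 of the 774 and 139 of the 589 cells with 3 or more genes. Phagocytes, plasmacytoid cells and stromal cells thus had shares whose intervals overlap the neutrophil background in both libraries. So did B cells, immature neutrophils and basophils or mast cells. Without Stmn1, Hmgb2, Dut and Pcna, phagocytes kept 4 of 166 (2.41%) and 5 of 283 (1.77%), beside 0% and 0.314% in mature neutrophils. Immature neutrophils kept 5 of 91 and 1 of 102, and basophils or mast cells 0 of 29 and 1 of 43. Plasmacytoid cells kept 0 of 93 and 1 of 91, and stromal cells 0 of 56 and 1 of 70.

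The genes differed in how far a UMI of each marked a cell that held others. Ccna2 is the cyclin of late S and G2: of thinned cells with a Ccna2 UMI, 91.7% of 84 in the CCl4+IPA library and 84.6% of 52 in the CCl4 library held 3 or more of the other 35 genes. Bub1 stood at 90.5% of 21 cells and 77.8% of 9, Ccnb1, the main mitotic cyclin, at 87.1% and 81.2%, Birc5, which encodes survivin, at 86.9% and 75.8%, Ccnb2 at 81.2% and 80.0% and Cenpf at 79.6% and 82.1%. Mki67 stood at 67.3% and 60.5% and Top2a at 54.4% and 54.3%. Hmgb2 (9.48% and 7.90%), Pcna (14.2% and 10.7%), Cenpa (17.1% and 10.8%) and Kif23 (22.3% and 13.4%) were each found mostly outside such cells. The MCM genes, Dut and Rrm1 lay between 16.3% and 35.4%, so most cells with a UMI of such a gene held fewer than 3 of the others. Uhrf1 and Rrm2 stood higher, at 71.2% and 48.7% for Uhrf1 and 72.9% and 60.0% for Rrm2.

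Hmgb2 and Kif23 stood apart in mature neutrophils. Hmgb2 was detected in 74.5% of thinned CCl4+IPA neutrophils and 73.9% of CCl4 neutrophils, at 1641 and 1534 CPM (UMIs per 1000000 of the lineage). Kif23, a kinesin of the cytokinetic bridge, was in 16.2% and 10.4% of them, with 284 and 170 UMIs or 179.5 and 107.5 CPM, a ratio of 1.67 (1.38 to 2.03). Kif11, another kinesin, had 3 UMIs in each library. Of the 6 genes with 20 or more UMIs in mature neutrophils, Kif23 was the only one at least 1.5-fold higher, where 13.4% of all genes were, and 0 were as much lower (6.23% of all genes).

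**Figure D2:**
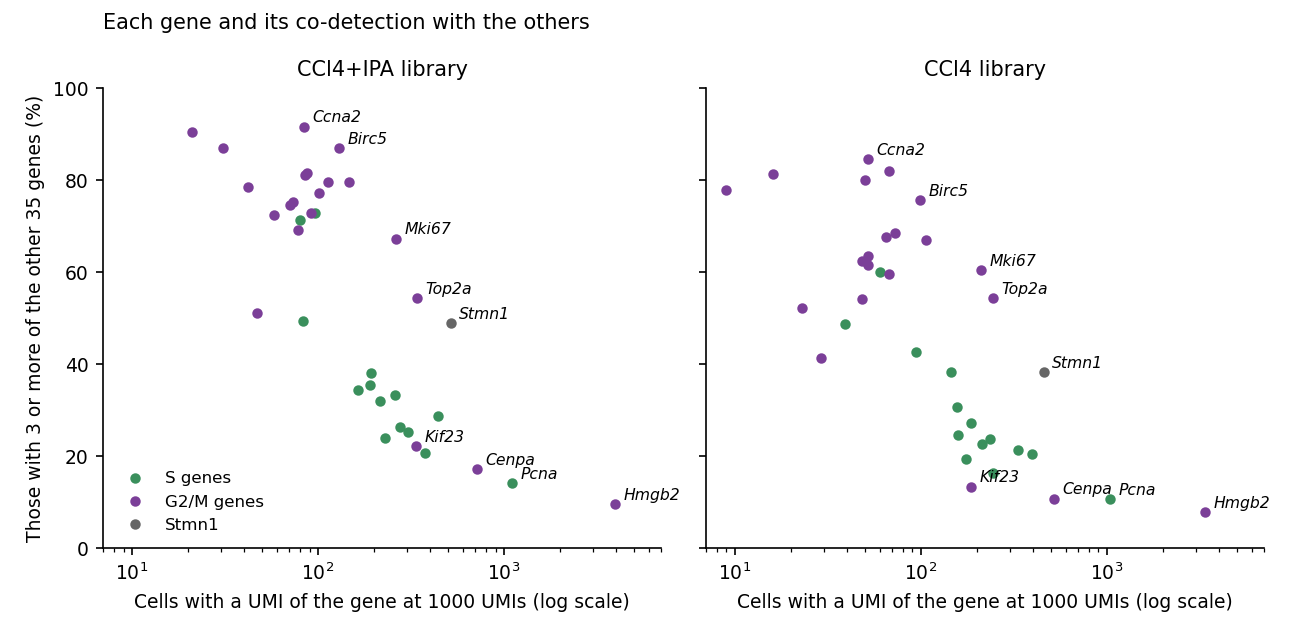
For each of the 36 genes, the number of thinned cells with a UMI of it (x axis, log scale) and the share of those cells with 3 or more of the other 35 genes (y axis, %), in the CCl4+IPA library (left) and the CCl4 library (right). Each point is a gene (S green, G2/M purple, Stmn1 grey); Ccna2 and Birc5 lie high and Hmgb2, Pcna and Cenpa low in both libraries.

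Summed over all kept cells, the 36 genes took 93012 UMIs (0.259%) in the CCl4+IPA library and 82821 (0.193%) in the CCl4 library. Of the 36, 8 were at least 1.5-fold higher in the CCl4+IPA library, where 17.3% of all 18181 genes measured were, and 0 were as much lower, where 8.15% were. Scaled by the median of all genes 0 were higher (8.94% of all genes), and 3 were (12.0% of all genes) with mitochondrial genes, Rn18s-rs5, Lars2 and Mir6236 left out of the total. Among S genes those with most UMIs were Pcna, the sliding clamp, at 165 and 132 CPM (ratio 1.26, 1.21 to 1.30), and Dut, which removes dUTP, at 79.2 and 61.8 CPM (1.28, 1.21 to 1.35). Mcm6 had 56.5 and 45.9 CPM (1.23, 1.16 to 1.31), and Rrm1, the large subunit of ribonucleotide reductase, 43.3 and 34.9 CPM (1.24, 1.16 to 1.33). These 4 S genes differed by little more than the typical gene. Among G2/M genes Hmgb2 had 967 and 743 CPM (1.30, 1.28 to 1.32), Mki67, a coat of mitotic chromosomes, 111 and 86.8 CPM (1.27, 1.22 to 1.33), and Top2a, which untangles sister DNA, 110 and 77.8 CPM (1.42, 1.36 to 1.49). Cenpa, the histone of centromeres, had 97.1 and 67.5 CPM (1.44, 1.37 to 1.51). Ccnb2 (1.72), Kif11 (1.71) and Kif23 (1.66) had the highest ratios of the 36, and Tyms alone was below 1, at 0.979 with an interval that includes 1.

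In T cells all 36 genes were measured (20 or more UMIs over both libraries), and each had a higher CPM in the CCl4+IPA library, although 6 S genes turn to lower when scaled by the median of all genes. At least 1.5-fold higher were 17 of 36, where 17.7% of 12962 genes were, and 0 were as much lower (3.33% of genes). Their median log2 ratio was 0.51, against 0.28 for all genes. The groups by timing were apart: the 14 S genes had a median of 0.36, 0.08 above all genes, with 1 of them past 1.5-fold, and the 21 G2/M genes had 0.66, 0.38 above all genes, with 15 past it. Scaled by the median of all genes 2 of the 36 were past 1.5-fold, where 6.31% of all genes were, with a median of 0.23. Each of the 21 G2/M genes stayed above the all-gene median, whereas 6 S genes (Tyms, Mcm4, Lig1, Dut, Pcna and Mcm6) lay below it.

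By role, the replicative helicase in T cells was lowest for Mcm4, with 53.2 CPM in the CCl4+IPA library and 48.8 in the CCl4 library (ratio 1.09, 0.96 to 1.24), and highest for Mcm5, with 48.3 and 36.6 CPM (1.32, 1.15 to 1.52). Mcm2, Mcm3, Mcm6 and Mcm7 lay between them, at 1.20 to 1.30. At the fork, Pcna had 210 and 175 CPM (1.20) and Lig1, which seals the lagging strand, 51.2 and 46.6 CPM (1.10, 0.97 to 1.25). For nucleotide supply, Tyms, which makes thymidylate, had 28.8 and 28.3 CPM (1.02, 0.86 to 1.21), the lowest ratio of the 36. Rrm2, the subunit of ribonucleotide reductase made in S phase, had 39.4 and 27.2 CPM (1.45, 1.24 to 1.70), while Rrm1 was at 1.31 and Dut at 1.17. Gmnn, which blocks repeat licensing, had 50.3 and 37.0 CPM (1.36), and Uhrf1, which guides maintenance methylation, 26.2 and 17.2 CPM (1.53, 1.25 to 1.86). Uhrf1 and Rrm2, the S genes most often found with others, had the highest ratios of the S genes. Tyms, the next most often found with others (49.4% and 42.6% of all thinned cells with its UMIs), had the lowest.

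**Figure D3:**
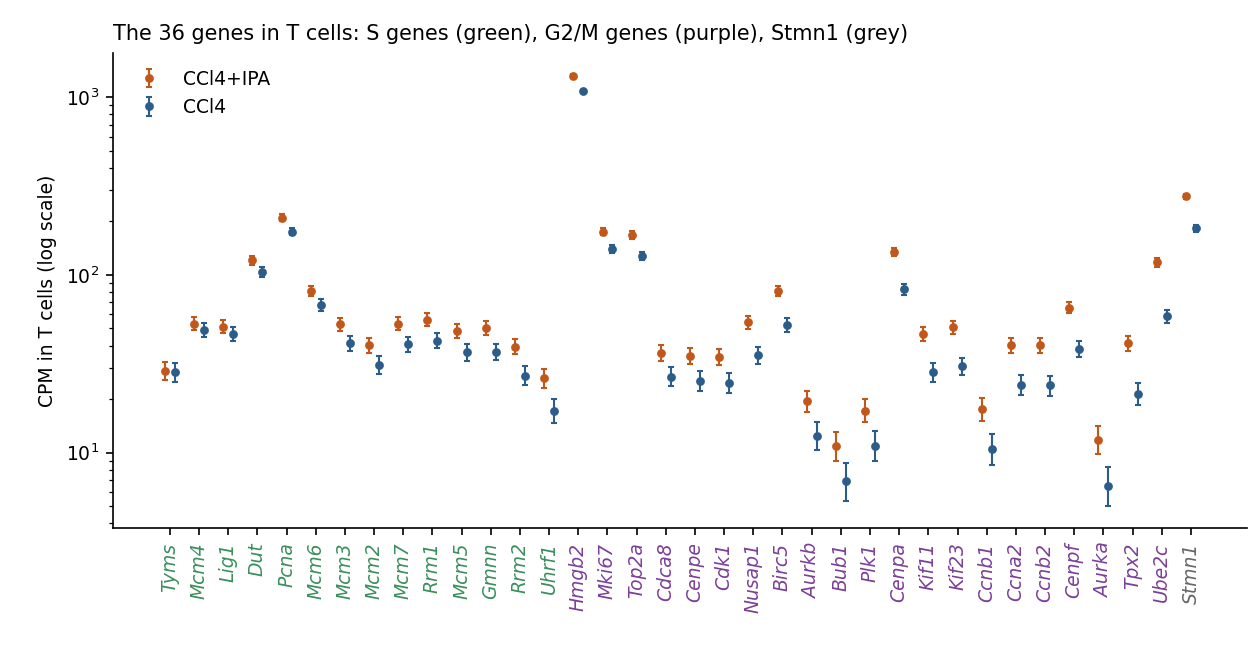
CPM of each of the 36 genes in T cells (y axis, log scale) in the CCl4+IPA (orange) and CCl4 (blue) libraries, with exact 95% Poisson intervals; genes run by timing and, within it, by rising ratio (x axis). The gap between the libraries is narrow for Tyms, Mcm4 and Lig1 and widest for Tpx2 and Ube2c.

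Among the mitotic genes of T cells the highest ratio was that of Ube2c, at 117 CPM in the CCl4+IPA library and 58.5 in the CCl4 library (2.01, 1.82 to 2.22). Tpx2, which activates Aurora A on the spindle, had 41.1 and 21.4 CPM (1.92, 1.62 to 2.28), and Aurka, the kinase itself, 11.8 and 6.48 CPM (1.82, 1.33 to 2.51). Cenpf, a kinetochore protein, had 65.5 and 38.4 CPM (1.71, with 1.5 to 1.94 as its interval). The mitotic cyclins were close to each other, with ratios of 1.69 for Ccnb2, 1.67 for Ccnb1 and 1.67 for Ccna2, while their kinase Cdk1 had 34.6 and 24.8 CPM (1.40). Of the chromosomal passengers, Aurkb (1.56) and Birc5 (1.55) were above Cdca8 (1.36), which codes for borealin. The checkpoint kinase Bub1 had 112 and 67 UMIs (1.57), and Plk1, the Polo kinase, 178 and 106 (1.58). Among centromere and spindle genes Cenpa was at 1.63, Kif23 at 1.66, Kif11, the motor that parts the poles, at 1.64, Nusap1 at 1.53 and Cenpe at 1.38. Mki67 (175 and 140 CPM, 1.25), Top2a (168 and 128 CPM, 1.31) and Hmgb2 (1322 and 1083 CPM, 1.22) had the lowest ratios of the G2/M genes. Stmn1 stood with the mitotic genes, at 277 and 183 CPM (1.51, 1.42 to 1.6).

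In T cells with fewer than 3 of the genes at 1000 UMIs, 7 of 32 genes measured were at least 1.5-fold higher in the CCl4+IPA library, where 18.5% of all genes were. Their median log2 ratio was 0.20, against 0.28 for all genes. As these cells were chosen for having few of the same genes, the values do not show where the difference lies. Inside counted T cells the sums of either phase differed little, where the median log2 ratio of all genes was 0.22 in cells with 3 or more G2/M genes and 0.20 in cells with 3 or more S genes. In T cells with 3 or more G2/M genes (149 and 81 cells) the S genes summed to 3150 and 3120 CPM (ratio 1.01, 0.96 to 1.06). In T cells with 3 or more S genes (116 and 73 cells) the G2/M genes summed to 8925 and 9020 CPM (0.99, 0.96 to 1.02). Much of the G2/M sum is Hmgb2 (4023 of 8228 UMIs in the CCl4+IPA library), and single genes did not all follow the sums. Of 14 S genes 2 had intervals below 1 in cells chosen by G2/M genes, Mcm2 (0.678, 0.49 to 0.94) and Tyms (0.769, 0.62 to 0.96). Of 21 G2/M genes Mki67 was below 1 (0.798, 0.71 to 0.89) and Kif23 above it (1.56, 1.15 to 2.15) in cells chosen by S genes. Over all lineages the sums differed: the S genes of cells with 3 or more G2/M genes summed to 2917 and 2267 CPM (1.29), and the G2/M genes of cells with 3 or more S genes to 8048 and 6613 CPM (1.22). The median log2 ratio of all genes in these cells was 0.23 and 0.21. T cells were 149 of 295 and 81 of 194 of the cells chosen by G2/M genes, so the mix of lineages differed as well.

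The ratio of S to G2/M UMIs, here the balance, in T cells was 0.362 (0.354 to 0.371) for the CCl4+IPA library, against 0.398 (0.387 to 0.409) for the CCl4 library. Without Hmgb2, Dut and Pcna, which resting cells also express, it was 0.485 and 0.591. Thinned T cells with 2 or more S genes and fewer than 2 G2/M genes numbered 173 and 141. Those with 2 or more G2/M genes and fewer than 2 S genes numbered 253 and 155, and those with 2 or more of each 121 and 73. Hmgb2 counts among the G2/M genes here. Of mature neutrophils, 129 of 811 and 71 of 637 also had 2 or more G2/M genes and fewer than 2 S genes. The balance was 0.684 and 0.718 in B cells, 0.520 and 0.550 in NK cells or ILC1, 0.316 and 0.325 in plasma cells and 0.0430 and 0.0535 in mature neutrophils, whose G2/M sum is mostly Hmgb2. It differed between the libraries by more in mononuclear phagocytes (0.233 and 0.339), conventional dendritic cells (0.344 and 0.595) and granulocyte progenitors (0.378 and 0.642), which are few cells. In CD8 T cells it was 0.344 and 0.403, in CD4 cells 0.341 and 0.404, and in regulatory cells 0.328 and 0.327. Lower balances in the CCl4+IPA library were thus found in CD8 and CD4 T cells and not in regulatory T cells, and the difference between subsets was not tested.

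In CD8 T cells the S and G2/M genes lay apart. Of the 36 genes 20 were at least 1.5-fold higher in the CCl4+IPA library, where 18.1% of genes were, and 0 were as much lower (2.3% of genes). The median log2 ratio was 0.80 for G2/M genes and 0.37 for S genes, against 0.29 for all genes. Highest were Tpx2 (55.8 and 23.9 CPM, 2.34, 1.91 to 2.87), Aurka (15.1 and 6.63 CPM, 2.28, 1.54 to 3.43), Ube2c (150 and 68.4 CPM, 2.19, 1.94 to 2.47) and Ccnb2 (50.2 and 25.5 CPM, 1.97, 1.61 to 2.42). Lowest among those whose interval leaves out 1 were Mcm6 (93.3 and 79.9 CPM, 1.17), Dut (140 and 120 CPM, 1.17), Mcm2 (45.1 and 37.3 CPM, 1.21) and Lig1 (60.8 and 50.2 CPM, 1.21), all below the all-gene shift. Among thinned T cells of all subsets, 45 and 13 held Tpx2 and 20 and 6 held Aurka, and the intervals do not cover differences between cells. The gap between G2/M and S medians was wider in immature neutrophils (1.03 over 13 genes and 0.34 over 5) and mononuclear phagocytes (0.68 over 14 and -0.19 over 12), which are fewer cells. A gene high in 1 library could pass the minimum of UMIs there through that library alone.

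CD4 and regulatory T cells had medians below the all-gene shift. In CD4 cells the median was 0.04, against 0.23 for all genes, with 5 of 36 at least 1.5-fold higher (19.1% of genes) and 2 as much lower (3.38% of genes). Ube2c had 93.2 and 50.9 CPM there (1.83, 1.37 to 2.46) and Ccna2 32.1 and 19.1 CPM (1.68, 1.03 to 2.80). Lig1 was lower in the CCl4+IPA library, at 31.5 and 55.1 CPM (0.571, 0.39 to 0.83). In regulatory T cells the median was -0.08, against 0.26, with 4 of 34 at least 1.5-fold higher (27.7% of genes) and 3 as much lower (5.4% of genes). Mki67 (196 and 271 CPM, 0.723, 0.58 to 0.91) and Stmn1 (199 and 276 CPM, 0.722, 0.58 to 0.90) were lower in the CCl4+IPA library, and Kif11 (60.6 and 32.1 CPM, 1.89, 1.09 to 3.43) and Cenpa (185 and 132 CPM, 1.41, 1.06 to 1.88) higher. The Mki67 UMIs of regulatory cells came from 37 and 17 cells, and 5 cells held 56.0% and 91.4% of them.

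In T cells with NK receptors 25 of 35 genes were at least 1.5-fold higher in the CCl4+IPA library (24.3% of genes) and 0 as much lower (3.82% of genes). The median log2 ratio was 0.83 for S genes and 1.11 for G2/M genes, against 0.26 for all genes, so here the S genes were high too. Kif11 had 60 and 5 UMIs (ratio 9.14, 3.71 to 29.2), Rrm2 63 and 10 (4.80, 2.45 to 10.5), Uhrf1 34 and 6 (4.32, 1.79 to 12.6) and Lig1 73 and 16 (3.48, 2.00 to 6.40). The nearest to 1 with an interval leaving it out were Pcna (1.26), Mcm6 (1.37), Cenpa (1.39) and Hmgb2 (1.45). Few cells carry these sums: the 5 highest cells held 46.4% of the Mki67 UMIs of the CCl4+IPA library and 85.7% of those of the CCl4 library, and the Ube2c UMIs of the CCl4 library came from 5 cells in all.

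NK cells or ILC1 had 3 genes whose interval leaves out 1. Their median log2 ratio was -0.08, against 0.23 for all genes, and 1 of 14 S genes and 1 of 18 G2/M genes lay above the all-gene median. Of 33 genes measured 0 were at least 1.5-fold higher (20.1% of genes) and 3 as much lower (2.97% of genes). Aurkb had 14 and 21 UMIs (4.01 and 11.1 CPM, 0.362, 0.17 to 0.75) and Tyms 35 and 38 UMIs (10.0 and 20.0 CPM, 0.501, 0.31 to 0.81). Cenpa was higher, at 65.9 and 51.1 CPM (1.29, 1.01 to 1.65). The 3 lower genes are few UMIs each, and with 100 or more UMIs required there were 0.

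In B cells 8 of 32 genes were at least 1.5-fold higher (16.8% of genes) and 2 as much lower (3.48% of genes), with a median of 0.32 against 0.27. Cenpf (20 and 10 UMIs, 2.79, 1.25 to 6.68), Ube2c (24 and 13 UMIs, 2.58, 1.26 to 5.51), Rrm2 (27 and 20 UMIs, 1.89, 1.02 to 3.55) and Cdca8 (32 and 25 UMIs, 1.79, 1.03 to 3.15) were the highest. When cells were given the lineage with most markers instead, 0 B-cell genes were higher and 10 lower, and the share of all genes under that gating is not given here. The B-cell median lies near that of all genes, and no direction is given for B cells. Hmgb2 had 364 and 310 CPM there (1.17) and Cenpa 103 and 83.0 CPM (1.25).

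Plasma cells, which secrete antibody and include dividing plasmablasts, were lower in the CCl4+IPA library. Of 36 genes 13 were at least 1.5-fold lower (14.1% of genes) and 0 as much higher (21.3% of genes), and the median log2 ratio was -0.47 against 0.07. Cdk1 had 22.5 and 61.0 CPM (0.368, 0.20 to 0.64), Cenpe 19.5 and 50.5 CPM (0.386, 0.20 to 0.71), Rrm2 40.4 and 96.4 CPM (0.419, 0.27 to 0.64) and Tyms 19.5 and 45.2 CPM (0.431, 0.22 to 0.79). Mki67 had 264 and 362 CPM (0.727, 0.61 to 0.87), and 79.5% and 44.1% of its UMIs came from 5 cells. These sums rest on 58 and 77 cells.

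Among myeloid cells the immature neutrophils, which still make secondary granules, had more of the mitotic genes in the CCl4+IPA library. Of 19 genes measured 11 were at least 1.5-fold higher (16.0% of genes) and 0 as much lower (8.13% of genes). Kif11 had 23 and 7 UMIs (4.47, 1.86 to 12.3), Top2a 69 and 27 (3.48, 2.20 to 5.64), Stmn1 68 and 29 (3.19, 2.04 to 5.11) and Mki67 77 and 45 (2.33, 1.59 to 3.44). Those Mki67 UMIs came from 9 and 5 cells, so the sums describe those cells. In mononuclear phagocytes 8 of 27 genes were at least 1.5-fold higher (17.7% of genes) and 1 as much lower (6.96% of genes). Kif11 (19 and 12 UMIs, from 2 and 5 cells, 2.79) and Cdk1 (16 and 11 UMIs, 2.56) were higher and Mcm6 (7 and 32 UMIs, 0.385, 0.14 to 0.89) lower. Plasmacytoid dendritic cells had 1 of 8 genes at least 1.5-fold higher (20.5% of genes) and 4 lower (7.26% of genes), Stmn1 lowest with 5 and 21 UMIs (0.284, 0.08 to 0.77). Stromal or mesothelial cells had 3 of 12 higher (21.4% of genes) and 3 lower (16.1% of genes), with Rrm1 at 19 and 79 UMIs (0.451, 0.26 to 0.75) and Pcna at 42 and 50 UMIs (1.57, 1.02 to 2.42). In cells with markers of several lineages 7 of 36 were higher (20.4% of genes) and 0 lower (5.86% of genes), and in cells that met no gate 4 of 19 were higher (29.0% of genes) and 0 lower (9.39% of genes).

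**Figure D4:**
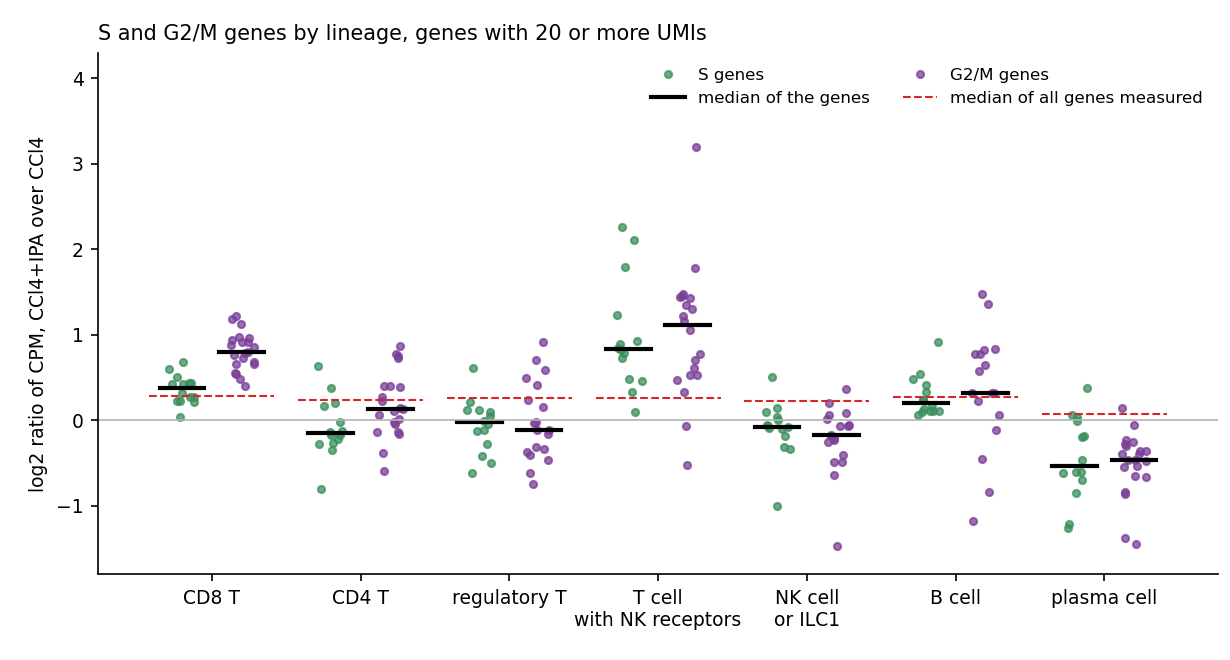
log2 ratio of CPM, CCl4+IPA over CCl4 (y axis), of each S gene (green) and G2/M gene (purple) with 20 or more UMIs, by lineage (x axis); black bars are medians of the genes and red dashed lines medians of all genes measured. The 2 medians of CD8 T cells are 0.37 and 0.80, those of NK cells or ILC1 and of plasma cells lie below the dashed line.

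The count of 3 or more genes also set apart T cells by genes outside the 36, in 13 lists of the same pathway that share no gene with them. Counted T cells were compared with the other T cells of the same library. They were deeper, with medians of 4322.5 and 3167.5 UMIs in the CCl4+IPA library and 5027 and 3863 in the CCl4 library. Over all genes 16.5% (CCl4+IPA) and 16.1% (CCl4) were at least 1.5-fold higher in counted cells, and 18.7% and 16.6% as much lower. In both libraries all 12 mitotic checkpoint genes, 13 cytokinesis genes, 8 anaphase genes, 8 condensin and cohesin genes, 17 polymerase and clamp loader genes and 9 histone supply genes were at least 1.5-fold higher. The median log2 ratios were 4.83 and 5.52 for the checkpoint list, 4.19 and 4.32 for cytokinesis and 2.63 and 2.36 for origin licensing, of which 11 of 12 were higher.

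Named genes show the size of these differences in the CCl4+IPA library. Cdc20, the activator of the anaphase-promoting complex, had 118 CPM in counted T cells and 2.58 in the others (45.7-fold, 29.3 to 75.1), and Espl1, which codes for separase, 39.0 and 0.736 (52.9-fold, 23.3 to 148). Cdc6, a licensing factor, had 39.0 and 0.859 CPM (45.3-fold, 21.1 to 116), whereas Orc2 had 23.5 and 18.4 (1.27, 0.906 to 1.77). Tk1, the S-phase thymidine kinase, had 84.5 and 3.56 CPM (23.7-fold, 16.0 to 36.5), Asf1b, a histone chaperone, 98.1 and 4.91 (20.0-fold) and Kif15 117 and 1.84 (63.5-fold). The transcription factors of the cycle ranged from E2f8, at 44.1 and 0.736 CPM, to Rbl2, at 150 and 133. Licensing, polymerase and checkpoint genes were thus each high in the sum over cells chosen by other genes. Such sums do not show whether single cells held them together.

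Genes known to restrain division differed by kind, and some genes of nucleotide supply, growth and the G1 cyclins are given beside them. Of the CDK inhibitors 5 of 7 measured were at least 1.5-fold higher in counted T cells of the CCl4+IPA library and 5 of 6 in those of the CCl4 library, with medians of 1.01 and 1.84, and 0 were as much lower. Of 11 quiescence and antiproliferative genes 4 were at least 1.5-fold lower in counted T cells of the CCl4+IPA library and 5 in those of the CCl4 library, and 0 were as much higher in either. Klf2, which holds T cells quiescent, had 857 CPM in counted cells and 1694 in the others in the CCl4+IPA library (0.506). Klf4 had 75.6 and 161 CPM (0.469). Cd52, placed in this list, ran the other way, at 2941 and 2143 CPM (1.37). Cdkn1b, the p27 inhibitor, was at 185 and 256 CPM (0.723). Samhd1, which degrades nucleotides, was lower in counted cells (263 and 452 CPM, 0.581), as was Rrm2b (16.9 and 30.7 CPM, 0.551). Most nucleotide synthesis genes ran the other way in that library. Of the 11 in their list 8 were at least 1.5-fold higher in counted cells and 2 as much lower, with a median of 1.15. Of the CDK inhibitors Cdkn3, in name a phosphatase of CDKs, had 74.2 and 1.35 CPM (54.9-fold) and Cdkn2a 19.2 and 2.45 (7.84-fold). Growth and MYC genes had medians of -0.08 and 0.00. Of 8 G1 and S cyclins and their kinases measured, 5 were at least 1.5-fold higher in counted T cells and 1 as much lower. This held in both libraries, with medians of 0.89 and 0.82. Ccnd2, a G1 cyclin, was lower in counted cells of the CCl4+IPA library (339 and 511 CPM, 0.664).

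**Figure D5:**
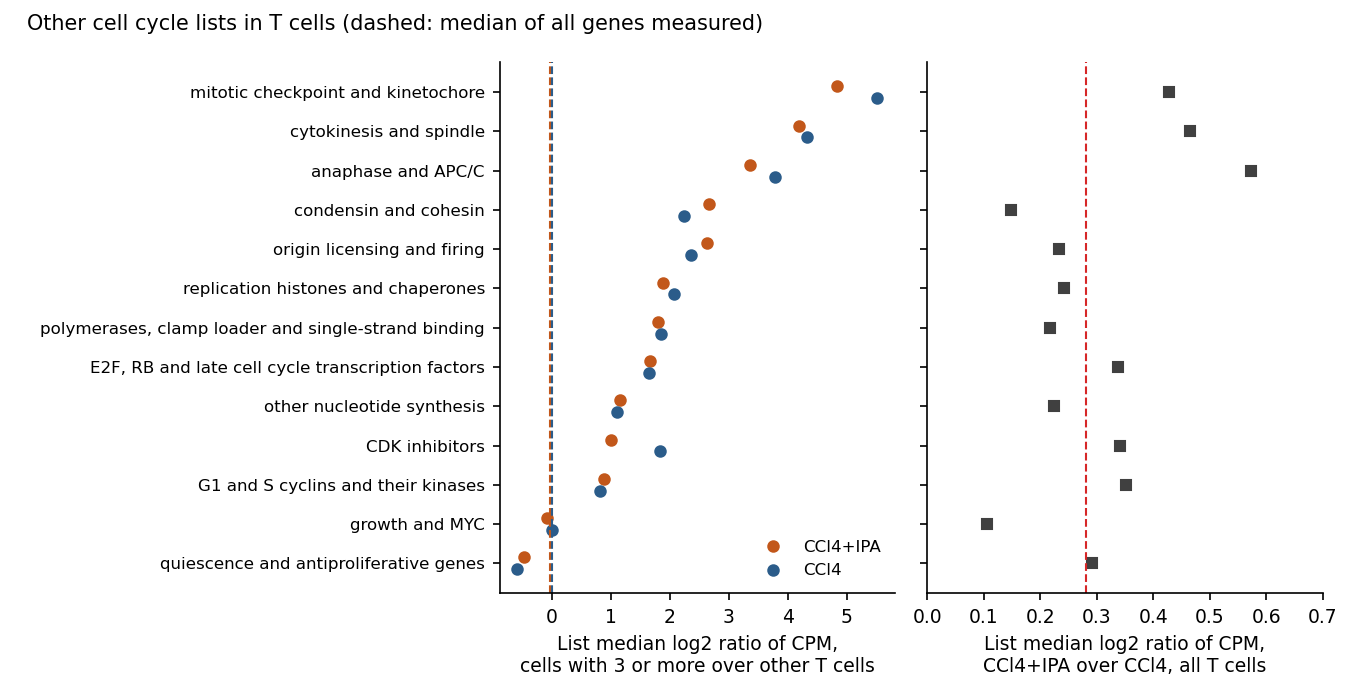
Median log2 ratio of CPM for each of 13 lists (y axis): on the left counted T cells over other T cells in the CCl4+IPA (orange) and CCl4 (blue) libraries, on the right CCl4+IPA over CCl4 in all T cells. Dashed lines are medians of all genes measured; the mitotic lists lie highest on the left, and anaphase, cytokinesis and checkpoint lists lie to the right of the line on the right.

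Between the libraries the 13 lists of T cells differed. Medians were 0.57 for anaphase, 0.46 for cytokinesis and 0.43 for the checkpoint, against 0.28 for all genes, and 0.23 for licensing, 0.22 for polymerases and 0.15 for condensin and cohesin, which also act in mitosis. G1 and S cyclins (0.35), CDK inhibitors (0.34) and E2F and related factors (0.34) lay above all genes as well. At least 1.5-fold higher in the CCl4+IPA library, where 17.7% of all genes were, were 4 of 8 anaphase genes, 4 of 13 cytokinesis genes, 3 of 12 checkpoint genes, 2 of 12 licensing genes and 0 of 17 polymerase genes, so the checkpoint and licensing counts are near that share. Espl1 had 8.61 and 3.70 CPM (2.33, 1.56 to 3.53), Kif20a, a kinesin of the midzone, 11.0 and 5.97 (1.85) and Bub1b, a checkpoint kinase, 16.6 and 9.05 (1.84, 1.41 to 2.41). At the low end Prim1, a primase subunit, had 14.8 and 17.4 CPM (0.852, 0.68 to 1.07) and Pola1 17.4 and 19.0 (0.915, 0.74 to 1.13). The median of the quiescence list was 0.29, with Klf2 at 1523 and 933 CPM (1.63, 1.59 to 1.67) and Cd52 at 2300 and 2792 (0.824). T cells of the CCl4+IPA library thus had more of both the mitotic genes and Klf2 per UMI. Fewer cells of a kind and less RNA per cell cannot be told apart in such sums, and whether more cells divided or each dividing cell held more of these transcripts was not tested.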

How the data were processed

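Gene counts were deposited as whole UMIs per barcode for 1 library per group; per the file headers they came from Cell Ranger 7.1.0 with the 3′ V3 chemistry, and the submitters' processing notes name Cell Ranger and mm9. No other step of the authors is given in the sources used here. Barcodes with at least 500 UMIs, 300 genes and under 20% mitochondrial UMIs were kept (10459 in the CCl4+IPA library and 10294 in the CCl4 library), and Scrublet (scanpy 1.11.5) removed 331 and 278 as doublets. Kept UMIs summed to 35902750 and 42891409. Summed counts per lineage gave CPM with exact Poisson intervals, ratios with conditional binomial intervals, shares with Clopper-Pearson intervals and share ratios with Katz log intervals. Ratios were given for genes with 20 or more UMIs over both libraries. The calculations were tested on simulated data. Python 3.11.15, numpy 2.4.6, scipy 1.17.1 and pandas 2.3.3 were used. Promoter windows came from the RefSeq table of GRCm38.p6. The 36 genes, the gates and the lists were chosen with earlier results of these data known. Genes named in full were the 4 of each phase with most UMIs, up to 4 highest and 4 lowest ratios per lineage, and up to 2 highest and 2 lowest per list. The T-cell genes, the neutrophil genes, Pola1, Rrm2b and Cdkn1b were named beyond that rule, after their values were seen.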

Additional observations from a re-analysis of the deposited data

How the results depend on the processing

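Of 331 recomputed values 287 stayed within the counting interval or spread of the reported value (counts within 1.5 times), 39 moved and 5 reversed. Of the 287, 30 lay on the other side of no difference, among them the share ratios of NK cells or ILC1, mature neutrophils and mononuclear phagocytes, whose intervals include 1, and the median of B cells. Reversed were, without thinning, the share ratios of T cells (0.965), CD8 T cells (0.969) and B cells (0.979), and for B cells also the ratio at 5 or more genes (0.340) and with the shift of a typical gene taken out (0.912). Share ratios that moved were, without thinning, 1.02 for all cells, 1.02 for T cells with NK receptors and 0.996 with the same lineage mix. At 5 or more genes T cells with NK receptors had 3.58, and with the shift taken out all cells had 1.11 and T cells 1.05. Without Hmgb2, Dut and Pcna the balance of S to G2/M UMIs was 0.534 and 0.593 in all cells and 0.485 and 0.591 in T cells. The count of genes at least 1.5-fold higher in all cells was 3 (12.0% of all genes) with mitochondrial genes, Rn18s-rs5, Lars2 and Mir6236 left out of the total. It was 0 (8.94% of all genes) when scaled by the median of all genes and 3 (17.0%) without the counted cells. In T cells the same settings gave 7 (10.2% of all genes), 2 (6.31%) and 7 (18.5%). In NK cells or ILC1 the count of higher genes was 3 with the lineage of most markers, 1 with no minimum beyond 1 UMI and 2 without the counted cells. The lower genes there numbered 9 with 3 gate markers, 5 with that smaller total, 6 under median scaling, 0 at 100 or more UMIs and 1 without the counted cells. In B cells 0 were higher and 10 lower with the lineage of most markers, 3 higher under median scaling, 1 higher and 0 lower at 100 or more UMIs, and 5 higher and 1 lower without the counted cells. For NK cells or ILC1 and B cells the share of all genes under these settings is not given, so these counts show only that they move. The median log2 ratio was 0.22 under median scaling and 0.11 without the counted cells in all cells, and 0.78 with most markers, 0.23 under median scaling and 0.20 without the counted cells in T cells. The mean of 20 thinnings, the count also without Cenpa and Kif23, and the shift taken out were chosen after seeing the data. Where barcodes with at least 200 genes were kept, doublets had been called only among those of the main filter. No paired analysis was possible because each group has 1 library, and none could be left out. Depth limits the smaller lineages, where 5 cells often hold most UMIs of a gene.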
